A study of Mus musculus with 12 samples.

Results

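The genes that encode the proteins of the cytosolic ribosome were read one by one in ribosome profiling of naive mouse embryonic stem cells (ESCs) and of the epiblast-like cells (EpiLCs) made from them. Members were chosen by symbol, namely Rpl or Rps followed by a digit, Rplp0, Rplp1, Rplp2 and Rpsa. The 10 Rps6k genes, which encode kinases, and 13 genes with a -ps symbol, which marks pseudogenes, were left out. Of 22462 genes in the table, 86 met the rule, 52 with a large subunit name and 34 with a small subunit name. Rps19bp1, which encodes a nucleolar partner of the protein RPS19, and Rpl7l1, which encodes a ribosome assembly factor, match the names although their products are not proteins of the mature ribosome. They were kept.

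ESCs were grown with LIF and the 2i inhibitors, which hold the naive state, and EpiLCs were collected about 56 h after both were withdrawn. For this differentiation the study lists a single line, V6.5 cells that carry miR290-mCherry and miR302-GFP reporters, and the labels name neither a line nor an allele or other agent for any group. Total RNA and ribosome protected footprints (RPFs), the stretches of mRNA that ribosomes shield from nuclease, were sequenced from 3 samples of each cell type, which gave 4 groups and 12 libraries. The study calls the replicates biological. The labels do not say that they came from separate cultures, so p-values measure only the spread between these samples.

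Library totals lay between 2681439 counts (EpiLC RPF replicate 2) and 14655015 counts (EpiLC total RNA replicate 1). The summed level of 6 naive markers was 1570 to 1778 CPM (counts scaled to a common library size) in ESC total RNA and 49.6 to 93.9 CPM in EpiLC total RNA, and that of 5 primed markers was 107 to 198 CPM and 1114 to 1197 CPM. A list of 4 fibroblast feeder markers, 1 of them at 0 throughout, summed to 1.77 to 2.05 CPM in ESC total RNA and 8.57 to 11.2 CPM in EpiLC total RNA. It summed to 6.14 to 7.14 CPM in ESC RPFs and 31.1 to 34.3 CPM in EpiLC RPFs, and its part in the results was not tested.

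Ribosomal proteins sit on ribosomal RNA, and nearly all of them are needed in a single copy per ribosome. Their mRNAs are short, abundant and begin with a stretch of pyrimidines, the terminal oligopyrimidine (TOP) motif, through which growth signals set how much of the mRNA is translated. Mammalian genomes also hold many processed copies of these mRNAs, most of them pseudogenes, so that a short read from a ribosomal protein mRNA often has more than 1 possible origin. A small number of ribosomal proteins have a second functional gene, a paralogue, which is often used in particular tissues.

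The deposited counts hold only reads with 1 mapping position, which decides which bases of these genes could be counted. The counted sequence of each gene was therefore split into every window of 29 nt, a length within that of the RPF reads, and of 50 nt, the longest total RNA read. Each window was looked up among all annotated mouse transcripts. In the median member 11.9% of the 29-nt windows and 23.0% of the 50-nt windows occurred at no other locus, whereas the median over all tested genes was 100% at both lengths. At 29 nt, 77 of 86 members had less than 50% unique windows, 40 had less than 10% and 11 had none. The median member shared a window with 14.5 other loci. The highest number was 349, for Rps19, and only 40 of those loci held an annotated pseudogene. Among tested genes outside the rule, 4.70% had less than 50% unique windows. As shares of exactly matching windows these are upper bounds, because copies outside annotated transcripts were not searched. They do not limit what was counted. Rpl9, with no unique window at either length, had 76 to 123 counts in the ESC total RNA libraries, and the reason was not tested.

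The level of a member moved with this share. Levels are given as CPM per kb of counted coding sequence, which leaves out the first 45 nt. Over the 66 tested members, Spearman's rho between the level in ESC RPFs and the unique share at 29 nt was 0.67, and between the level in ESC total RNA and the unique share at 50 nt it was 0.58. In EpiLCs the same values were 0.58 for RPFs and 0.54 for total RNA. These correlations run across genes, which are not replicates and share libraries.

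**Figure D1:**
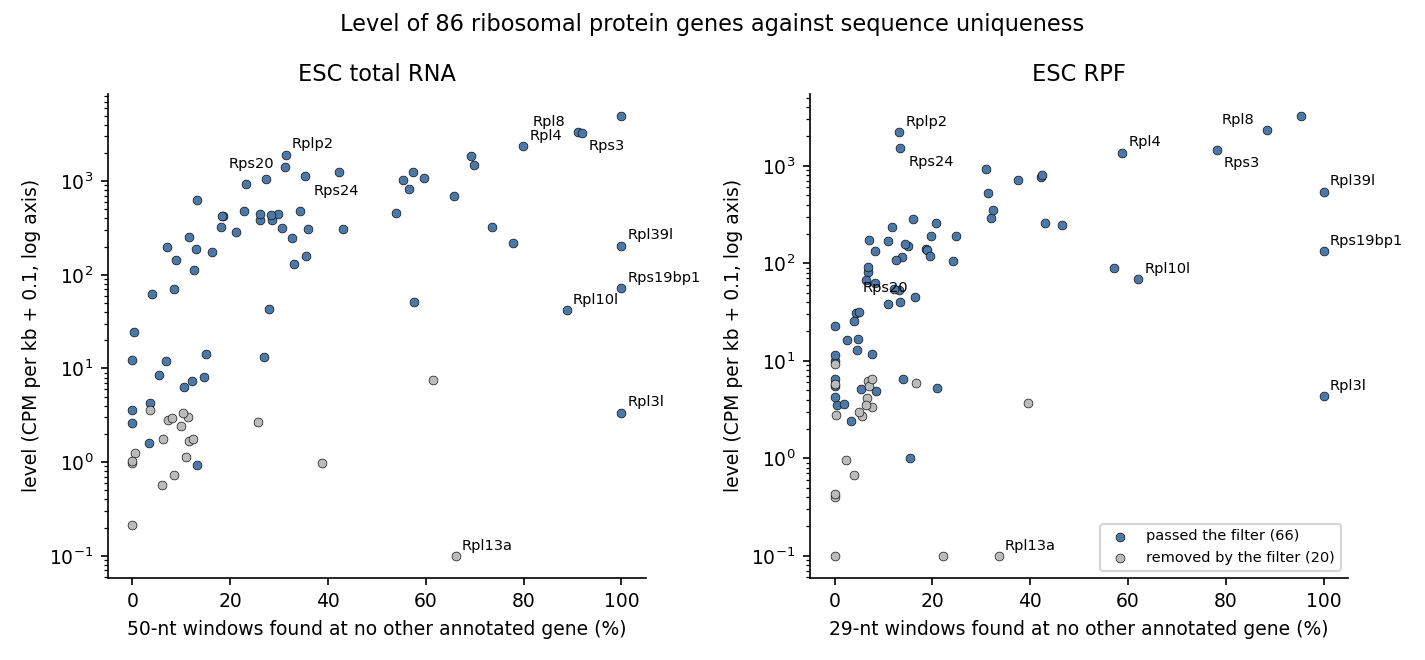
Level of all 86 members (y axis, mean CPM per kb of 3 libraries plus 0.1, log axis) against the share of windows found at no other annotated gene (x axis, percent), for ESC total RNA with 50-nt and ESC RPFs with 29-nt windows, with 66 tested members in blue and 20 removed ones in grey. Levels rise with the share, with Rpl8 (88.5% at 29 nt) among the highest, while Rpl3l with 100% and Rpl13a, at 0 counts with 33.5%, lie far below.

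Rpl8 was among the highest in both assays. Its total RNA gave 2341, 2509 and 2390 CPM in ESCs and 2439, 2293 and 2508 CPM in EpiLCs, which overlapped. Its RPFs gave 1620, 1696 and 1799 CPM in ESCs and 1930, 2139 and 1922 CPM in EpiLCs, without overlap. Per kb, Rpl8 stood at 3310 ± 119 and Rps3 at 3255 ± 88.6 in ESC total RNA (SD, n = 3), and they did not differ beyond their spread. In ESC RPFs Rpl8 stood at 2339 ± 123 and Rplp2 at 2230 ± 217 CPM per kb, and they overlapped. Rpl8 and Rps3 encode large and small subunit proteins, and Rplp2 encodes an acidic protein of the P stalk, the arm of the large subunit that recruits elongation factors.

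Together the 86 members took 2.21% ± 0.0458 of ESC total RNA counts, 2.24% ± 0.0819 of EpiLC total RNA counts, 1.12% ± 0.0231 of ESC RPF counts and 1.27% ± 0.00796 of EpiLC RPF counts (SD, n = 3). In both cell types every RPF library lay below every total RNA library, and every EpiLC RPF library lay above every ESC RPF library. For each of these comparisons the 2-sided exact permutation test gave p = 0.1, the smallest that 3 against 3 libraries allow (adjusted p = 0.133 over 4 tests). For total RNA between the cell types the same exact test gave p = 0.6. These sums rest on a small number of members, since 4 of the 86 took 49.5% to 56.3% of the member counts in each library. Rplp2 alone took 0.0657% ± 0.00628 of ESC RPF counts and 0.142% ± 0.0216 of EpiLC RPF counts (SD, n = 3).

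The tested members spread widely. The upper quartile of the levels was 14.5 times the lower quartile in ESC total RNA, 23.6 times in EpiLC total RNA, 15.0 times in ESC RPFs and 9.69 times in EpiLC RPFs (means of 3 libraries). For the 55 members with at least 20 unique windows at both lengths, the same ratio was 5.86, 6.84, 6.40 and 6.10. When their levels were divided by unique windows instead of counted length, it was 5.14, 4.94, 4.64 and 4.86. On that scale Rplp2 and Rps24 led ESC RPFs, with 16892 ± 1643 and 11407 ± 846 CPM per kb of unique windows (SD, n = 3).

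At the lower end of the range stood members that could hardly be counted. In ESC total RNA the lowest levels were those of Rpl13a with 0, Rps27rt with 0.115 ± 0.200 and Rps6 with 0.465 ± 0.229 CPM per kb (SD, n = 3). In ESC RPFs, Rpl13a, Rps27rt and Rps29 were all at 0. Rps6 encodes the classical phosphorylated protein of the small subunit, and 3.97% of its 29-nt windows were unique. Among tested members, Rpl28, Rps7 and Rpl5 were lowest in ESC total RNA with 0.835 ± 0.792, 1.48 ± 0.497 and 2.48 ± 0.702 CPM per kb. Rpl39, Rpsa and Rpl29 were lowest in ESC RPFs with 0.912 ± 0.959, 2.32 ± 0.374 and 3.40 ± 1.26 CPM per kb. A count of 0 allows up to 3 counts, or 0.205 to 1.12 CPM depending on the library.

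The filter of at least 3 CPM in at least 3 libraries removed 20 members, among them Rpl11, Rpl13a, Rpl15, Rpl19, Rpl21, Rpl23a, Rpl24, Rpl27, Rpl36a, Rpl38, Rpl41, Rps13, Rps16, Rps23, Rps27, Rps27a, Rps27rt, Rps29 and Rps6. Their highest count in any library was 36, for Rpl24 in an ESC RPF library. Their median unique share at 29 nt was 6.01%, against 13.6% in the 66 that remained. Rpl13a, whose product can leave the ribosome to repress inflammatory mRNAs, had 0 counts in all 12 libraries although 33.5% of its 29-nt windows were unique. It is the only member whose counted bases overlap another gene on its strand, Gm45713, over all 567 nt of its counted sequence. Its copy Rpl13a-ps1 (chr19:50030124-50030690, mm10), left out by the rule, had 218 to 407 counts in ESC total RNA and 159 to 284 in EpiLC total RNA, but 0 to 12 and 0 to 3 in RPFs.

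Translational efficiency (TE) is the log2 ratio of RPF to total RNA, in which 0 is set by the scaling and stands close to the typical gene. Over the 66 tested members the median TE was -1.22 in ESCs and -0.96 in EpiLCs, against -0.02 and -0.01 over all 11750 tested genes. Among the 4752 genes within the members' length range of 111 to 1215 nt, it was 0.32 and 0.33. In ESCs 48 members had lower RPFs than total RNA and 11 had higher (limma, Benjamini-Hochberg adjusted p below 0.05), where 34.5% and 33% of all genes were called lower and higher. In EpiLCs 46 members were lower and 10 higher, where 33% and 31.3% of all genes were. Past an absolute log2 limit of 1, 37 members were lower and 6 higher in ESCs (background 13.5% and 7.93%), and 30 lower and 6 higher in EpiLCs (14.4% and 9.39%). Across the members, TE in ESCs and TE in EpiLCs had a Spearman's rho of 0.90.

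The unique share also differed between the assays, because fewer 29-nt than 50-nt windows were unique. The median log2 ratio of the 2 shares was -0.84. Over 60 members with a unique window at both lengths, Spearman's rho of this ratio with TE was 0.36 in both cell types, and Pearson's r was 0.30 in ESCs and 0.29 in EpiLCs. In the 9 members with at least 50% unique windows at 29 nt the median TE was -0.50 in ESCs and -0.29 in EpiLCs, and in the other 57 it was -1.31 and -1.04. In the 55 members with at least 20 unique windows the median was -1.28 in ESCs and -1.0 in EpiLCs. With the ratio of the shares at 29 and 50 nt subtracted per gene, it was -0.36 and -0.26. With the shortest total RNA read of 32 nt in place of 50 nt, it was -1.09 and -0.90. The actual read lengths lie between these, so how much of the low TE belongs to the mRNAs cannot be told apart from the counting.

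**Figure D2:**
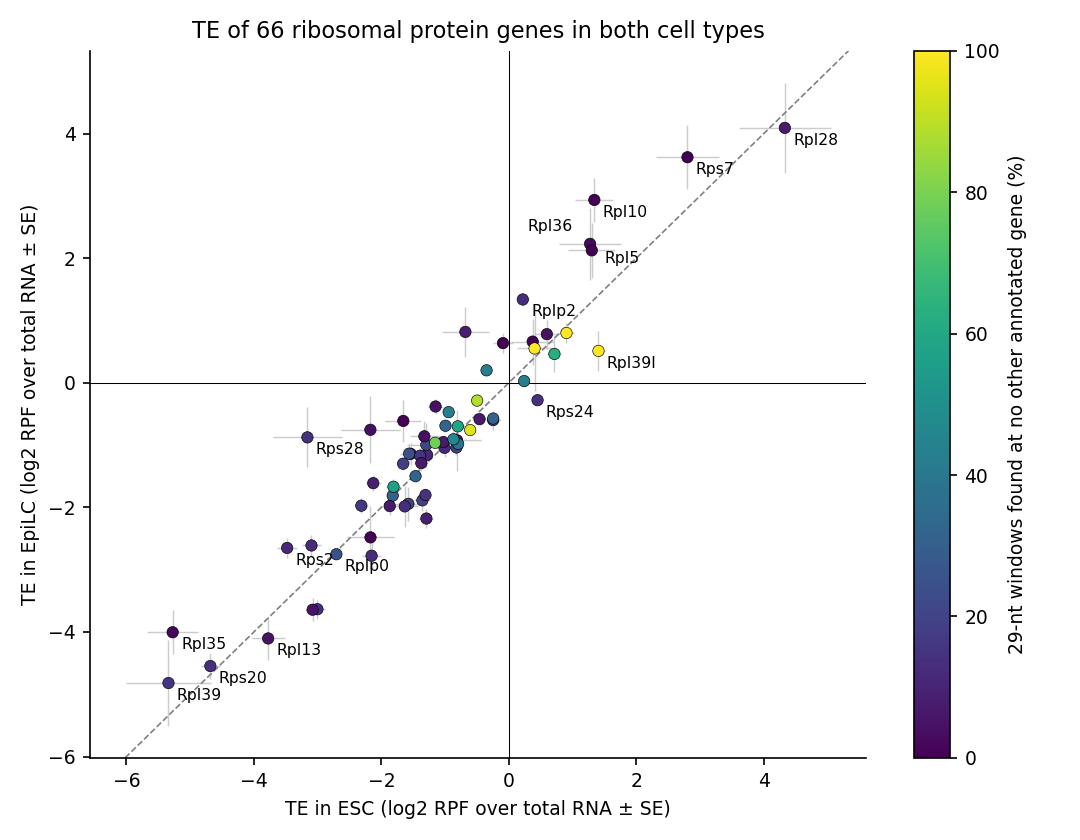
TE in EpiLCs (y axis) against TE in ESCs (x axis), both log2 ± SE, for the 66 tested members, with 1 point per gene coloured by its share of unique 29-nt windows in percent and a dashed line of equal values. Most points lie near the line and below 0 on both axes, from Rpl39 at -5.34 and -4.82 to Rpl28 at 4.33 and 4.09.

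Apart from Rpl39l, the highest TEs belonged to members with few total RNA counts. Rpl28, a large subunit protein, had 8, 0 and 4 counts in ESC total RNA and 23, 20 and 61 in ESC RPFs, and a fitted TE of 4.33 ± 0.72 (SE). Rps7, a small subunit protein that also binds the p53 regulator MDM2, had 12, 6 and 12 counts in ESC total RNA and 26, 38 and 76 in ESC RPFs, with a TE of 2.80 ± 0.49. Rpl10, which joins the large subunit last, had 27, 27 and 24 counts in ESC total RNA and 32, 39 and 58 in ESC RPFs, with a TE of 1.34 ± 0.30. In all of these genes the RPF counts exceeded the total RNA counts, although the RPF libraries were on average shallower.

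Their unique shares at 29 nt were 7.59%, 0% and 0%. Rpl39l (TE 1.41 ± 0.10) and Rpl5 (1.30 ± 0.37), which carries 5S ribosomal RNA into the large subunit, completed the highest TEs in ESCs. In EpiLCs they were those of Rpl28 (4.09 ± 0.72), Rps7 (3.62 ± 0.52), Rpl10 (2.93 ± 0.35), Rpl36 (2.23 ± 0.58) and Rpl5 (2.13 ± 0.45). Rpl36 and Rpl5 had 2.56% and 0% unique windows. Rpl39l had 298, 246 and 302 counts in ESC total RNA, and all of its 29-nt windows were unique. All 6 genes passed the test in ESCs and in EpiLCs, apart from Rpl39l in EpiLCs (0.51 ± 0.32, limma adjusted p = 0.166).

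The lowest TE in both cell types was fitted for Rpl39, a short gene with 111 counted nt whose product lines the exit tunnel. It had 77, 74 and 61 counts in ESC total RNA and 0, 1 and 1 in ESC RPFs. In EpiLCs it had 104, 17 and 37 counts in total RNA and 0, 1 and 0 in RPFs. Its fitted TEs of -5.34 ± 0.67 and -4.82 ± 0.69 depend on the 0.5 added to each count and are not bounds. Rps20, a small subunit protein, was measured at higher counts, with 334, 324 and 349 CPM in ESC total RNA and 12, 9.55 and 15.8 CPM in ESC RPFs. Its EpiLC libraries gave 266, 310 and 294 CPM in total RNA and 15.5, 9.10 and 11.2 CPM in RPFs. The assays were far apart in both cell types, with TEs of -4.68 ± 0.15 and -4.55 ± 0.20.

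Rpl35 had TEs of -5.27 ± 0.40 in ESCs and -4.0 ± 0.35 in EpiLCs, and Rpl13 had -3.78 ± 0.26 and -4.10 ± 0.35. Rps2, which helps to hold the decoding centre, had -3.48 ± 0.16 in ESCs. All of these values passed the test (limma, largest adjusted p = 1.15e-06, for Rpl39 in EpiLCs). At 29 nt the unique shares of Rps20, Rpl35, Rpl13 and Rps2 were 13.3%, 1.83%, 4.74% and 11%.

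Total RNA of most members differed little between the cell types. The median log2 change from ESCs to EpiLCs was 0.0020, and 5 members rose and 13 fell (limma, adjusted p below 0.05), where 34.6% and 30.7% of all genes were called. In bulk samples, fewer cells of a type and less RNA per cell cannot be told apart. The members that fell most were the paralogues Rpl3l, Rpl39l and Rpl10l, described below, and no other member passed a fold limit of an absolute log2 change above 1 (background 14.6% higher and 9.7% lower). Rpsa, which encodes a small subunit protein also known as the laminin receptor, had 8.44, 15.6 and 5.90 CPM in ESC and 5.53, 7.83 and 3.09 CPM in EpiLC total RNA, and the groups overlapped. Its change was -0.86 ± 0.30 (SE, limma adjusted p = 0.014). Without ESC total RNA replicate 2 it was -0.51 (adjusted p = 0.101), and without EpiLC total RNA replicate 3 it was -0.57 (adjusted p = 0.107).

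Rpl9, with no unique window at either length, had 8.95, 6.39 and 7.53 CPM in ESC and 5.13, 4.48 and 5.26 CPM in EpiLC total RNA, without overlap. It changed by -0.59 ± 0.21 (limma adjusted p = 0.0145). Without ESC total RNA replicate 1 its adjusted p was 0.0859, and without EpiLC total RNA replicate 1 it was 0.0556. Rpl7l1 (-0.55), Rpl37a (-0.54), Rps19bp1 (-0.46), Rps24 (-0.29), Rpl37 (-0.29), Rpl36al (-0.26), Rpl14 (-0.26) and Rps20 (-0.23) made up the rest of those that fell.

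The rises in total RNA were small. Rpl13 had 123, 115 and 114 CPM in ESCs and 126, 206 and 142 CPM in EpiLCs. Its change of 0.35 ± 0.12 rested on EpiLC total RNA replicate 2, without which it was 0.18 (adjusted p = 0.0939). Rps27l (0.23), Rps4x (0.21), the X-linked copy of a small subunit gene, and Rps9 (0.15) also passed. Rps27l did not pass without ESC total RNA replicate 3 (0.16, adjusted p = 0.117), and Rps4x and Rps9 did not pass in 9 and 10 of the 12 fits with a library removed (adjusted p of 0.0707 to 0.157 and 0.0656 to 0.157).

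RPFs of the members changed more often. In EpiLCs 18 rose and 14 fell (limma, adjusted p below 0.05), where 31.1% and 28.7% of all genes were called, and the median log2 change was 0.19 against 0.01 over all genes. Without a single RPF library this median lay between 0.05, without ESC RPF replicate 1, and 0.19. It was 0.12 without ESC RPF replicate 2, 0.12 without replicate 3, and 0.08 without EpiLC RPF replicate 1 or 2. In the 9 members with at least 50% unique windows it was -0.10. Past the fold limit, 4 members rose and 4 fell (background 15.4% and 10.6%). Those that rose were Rps28, Rpl35, Rpl10 and Rplp2, and those that fell were Rpl39l, Rpl10l, Rpl3l and Rps24.

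Of these, Rps28 and Rpl35 were measured at few counts. Rps28, the small subunit gene with the largest fitted rise (1.75 ± 0.67, limma adjusted p = 0.0284), had 2, 10 and 9 counts in ESC RPFs and 8, 6 and 20 in EpiLC RPFs. Its CPM values overlapped between the cell types, and it did not pass without ESC RPF replicate 1 (1.07, adjusted p = 0.158), ESC RPF replicate 3 (1.84, 0.0533) or EpiLC RPF replicate 3 (1.34, 0.143). Rpl35 had 7, 6 and 14 counts in ESC RPFs and 18, 11 and 10 in EpiLC RPFs, a change of 1.33 ± 0.52 (adjusted p = 0.0322). It did not pass without any one of the ESC RPF libraries or without EpiLC RPF replicate 1 or 2 (adjusted p of 0.0583 to 0.127).

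Rpl10 had 4.09, 8.28 and 5.31 CPM in ESC RPFs and 14.7, 11 and 9.73 CPM in EpiLC RPFs, a rise of 1.13 ± 0.25 without overlap (adjusted p = 0.000423). Its total RNA did not pass the test (-0.46 ± 0.38). Rps7 rose by 0.82 ± 0.32 (adjusted p = 0.0319) from 3.33, 8.06 and 6.96 CPM to 7.45, 7.59 and 14.6 CPM, with overlap. Without ESC RPF replicate 1 its change was 0.41 (adjusted p = 0.252), and without EpiLC RPF replicate 3 it was 0.40 (adjusted p = 0.382). The call was also lost with every gene that has a count (adjusted p = 0.0613), edgeR's quasi-likelihood test (0.0642), DESeq2 (0.11) and limma-trend (0.20).

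The other rises included those of Rpl12 (0.81), Rpl3 (0.76), Rps2 (0.73), Rps12 (0.73), Rps9 (0.70), Rpl22 (0.55), Rpl22l1 (0.53), Rps27l (0.37), Rps3 (0.28), Rps21 (0.26), Rpl8 (0.22) and Rpl4 (0.17). The other falls were those of Rps3a1 (-0.95), Rpl37a (-0.89), Rpl7l1 (-0.76), Rps15a (-0.62), Rpl36al (-0.61), Rps19bp1 (-0.57), Rpl26 (-0.49), Rpl34 (-0.45), Rpl7 (-0.40) and Rps14 (-0.28). The row of Rpl12, which encodes the base of the P stalk, was thus higher as well as that of Rplp2. RPF changes of the P-stalk genes Rplp0 and Rplp1 were not called. With no unique window at 29 nt, the reads in the row of Rpl12 cannot be assigned to that gene with certainty. In 34 tested members no RPF change was called.

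**Figure D3:**
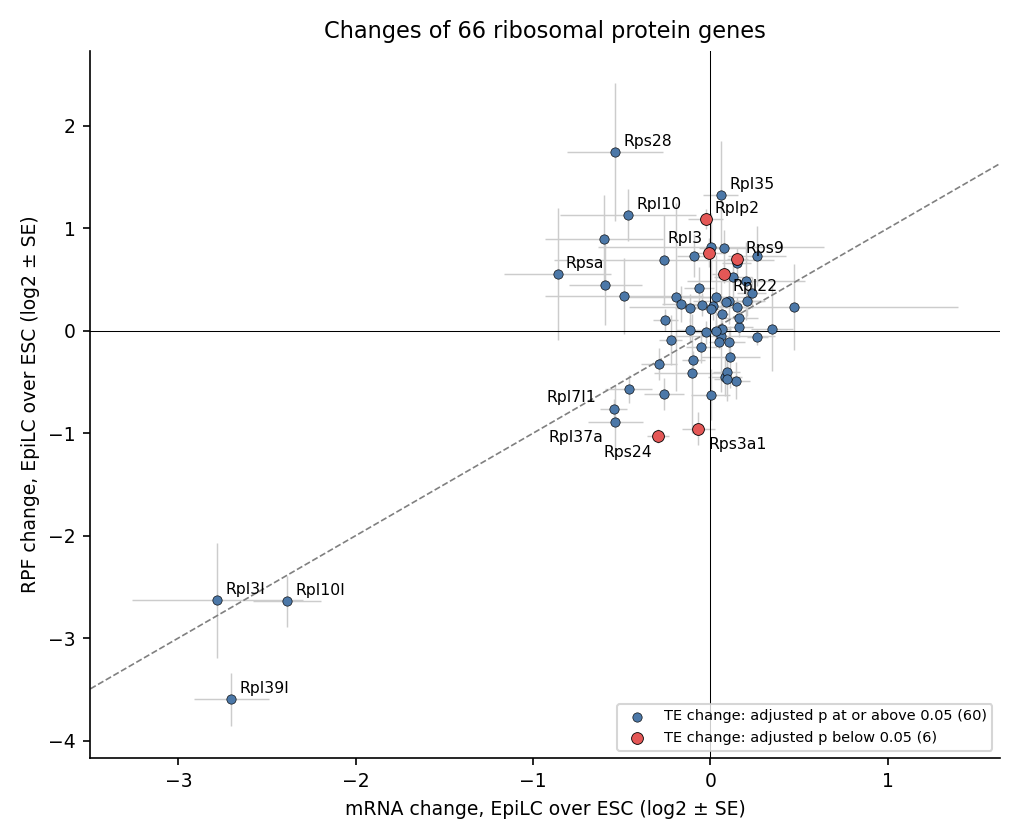
Log2 change of RPFs (y axis) against log2 change of total RNA, marked mRNA (x axis), from ESCs to EpiLCs, both ± SE, for the 66 tested members, with the 6 members whose TE change passed in red and a dashed line of equal changes. Rpl3l, Rpl10l and Rpl39l lie far to the lower left, and the others lie between -0.86 (Rpsa) and 0.47 (Rpl28) on the x axis and between -1.02 (Rps24) and 1.75 (Rps28) on the y axis.

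The change of TE, tested as the interaction of assay and cell type, was called for 6 members. Rplp2, Rpl3, Rps9 and Rpl22 rose and Rps3a1 and Rps24 fell, where 0.57% and 0.63% of all genes were called. With same-numbered RPF and total RNA libraries of a cell type as a replicate block, 5 rose and 4 fell. These included Rps2 (0.79, limma adjusted p = 0.00154) and Rpl7 (-0.49, adjusted p = 0.0343), which did not pass without the block (adjusted p = 0.073 and 0.0828). Past the fold limit only Rplp2 was called higher (background 0.136%) and no member lower (0.119%). Over the members the median TE change was 0.13, against 0.01 over all genes. Spearman's rho of the TE change with the unique share at 29 nt was -0.32.

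Rplp2 had 544, 609 and 591 CPM in ESC and 590, 451 and 670 CPM in EpiLC total RNA, which overlapped. Its RPFs were 604, 690 and 733 CPM in ESCs and 1391, 1238 and 1668 CPM in EpiLCs, so that every EpiLC library lay above every ESC library. RPFs thus rose by 1.09 ± 0.10 and TE by 1.12 ± 0.14 (SE, limma adjusted p = 9.37e-05), or 2.17-fold. The other genes of the P stalk did not pass. Rplp0, which anchors the stalk, had 159, 164 and 192 CPM in ESC RPFs and 177, 156 and 187 CPM in EpiLC RPFs, a TE change of -0.05 ± 0.10 (adjusted p = 0.889). Rplp1, which pairs with Rplp2, had 108, 75.1 and 75.6 CPM in ESC RPFs and 104, 129 and 81.2 CPM in EpiLC RPFs, a TE change of 0.34 ± 0.16 (adjusted p = 0.336). Both overlapped between the cell types, and the difference between Rplp2 and its partners was not tested.

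The 3 genes also stood apart in TE within a cell type. It was 0.22 ± 0.10 for Rplp2 in ESCs and 1.34 ± 0.10 in EpiLCs. For Rplp0 it was -2.71 ± 0.07 and -2.75 ± 0.08, and for Rplp1 -2.31 ± 0.11 and -1.97 ± 0.12. Their unique shares at 29 nt were 13.2% for Rplp2, 24.9% for Rplp0 and 16% for Rplp1, which puts the counts of Rplp2 on 40 unique windows.

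Rps24, which sits at the foot of the small subunit and is mutated in Diamond-Blackfan anaemia, moved the other way. Its total RNA was 394, 408 and 415 CPM in ESCs and 312, 358 and 331 CPM in EpiLCs, a fall of 0.29 on the log2 scale (limma adjusted p = 0.000154). Its RPFs were 520, 539 and 598 CPM in ESCs and 263, 267 and 285 CPM in EpiLCs. Neither assay overlapped between the cell types. RPFs changed by -1.02 ± 0.07 and TE by -0.73 ± 0.09 (adjusted p = 9.37e-05). Rps3a1, a small subunit protein near the mRNA exit, kept total RNA of 260, 238 and 232 CPM in ESCs and 238, 193 and 263 CPM in EpiLCs. Its RPFs were 116, 99.7 and 86.9 CPM in ESCs and 41.0, 70.9 and 52.2 CPM in EpiLCs, without overlap. TE changed by -0.89 ± 0.19 (adjusted p = 0.0168), and by -0.70 without EpiLC RPF replicate 1 (adjusted p = 0.0748).

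Rps9, a small subunit protein that binds ribosomal RNA early in assembly, had RPFs of 417, 461 and 473 CPM in ESCs and 674, 766 and 765 CPM in EpiLCs. Its total RNA was 593, 559 and 568 CPM in ESCs and 671, 579 and 650 CPM in EpiLCs. RPFs were separate and TE rose by 0.55 ± 0.09 (adjusted p = 0.00191). Rpl3, which reaches the peptidyl transferase centre, had RPFs of 41.8, 29.7 and 37.3 CPM in ESCs and 52.1, 75.1 and 66.1 CPM in EpiLCs. Its total RNA was 87.2, 81.2 and 76.8 CPM in ESCs and 84.5, 69.2 and 87.8 CPM in EpiLCs. TE rose by 0.77 ± 0.17 (adjusted p = 0.0247). It did not pass without ESC RPF replicate 2 (0.68, adjusted p = 0.0695) or EpiLC RPF replicate 2 (0.69, 0.0757) or 3 (0.72, 0.0781).

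Rpl22, an RNA-binding protein at the surface of the large subunit, had RPFs of 313, 232 and 245 CPM in ESCs and 349, 371 and 432 CPM in EpiLCs. Its total RNA was 494, 520 and 502 CPM in ESCs and 531, 539 and 529 CPM in EpiLCs. TE rose by 0.47 ± 0.11 (adjusted p = 0.0342), and this call was lost in 9 of the 12 fits with a library removed. It held only without ESC total RNA replicate 1, ESC RPF replicate 1 or EpiLC RPF replicate 1. In the others TE rose by 0.38 to 0.50 with adjusted p from 0.0516 to 0.124. At 29 nt the unique shares of Rps24, Rps3a1, Rps9, Rpl3 and Rpl22 were 13.4%, 8.27%, 42.4%, 4.37% and 42.1%.

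**Figure D4:**
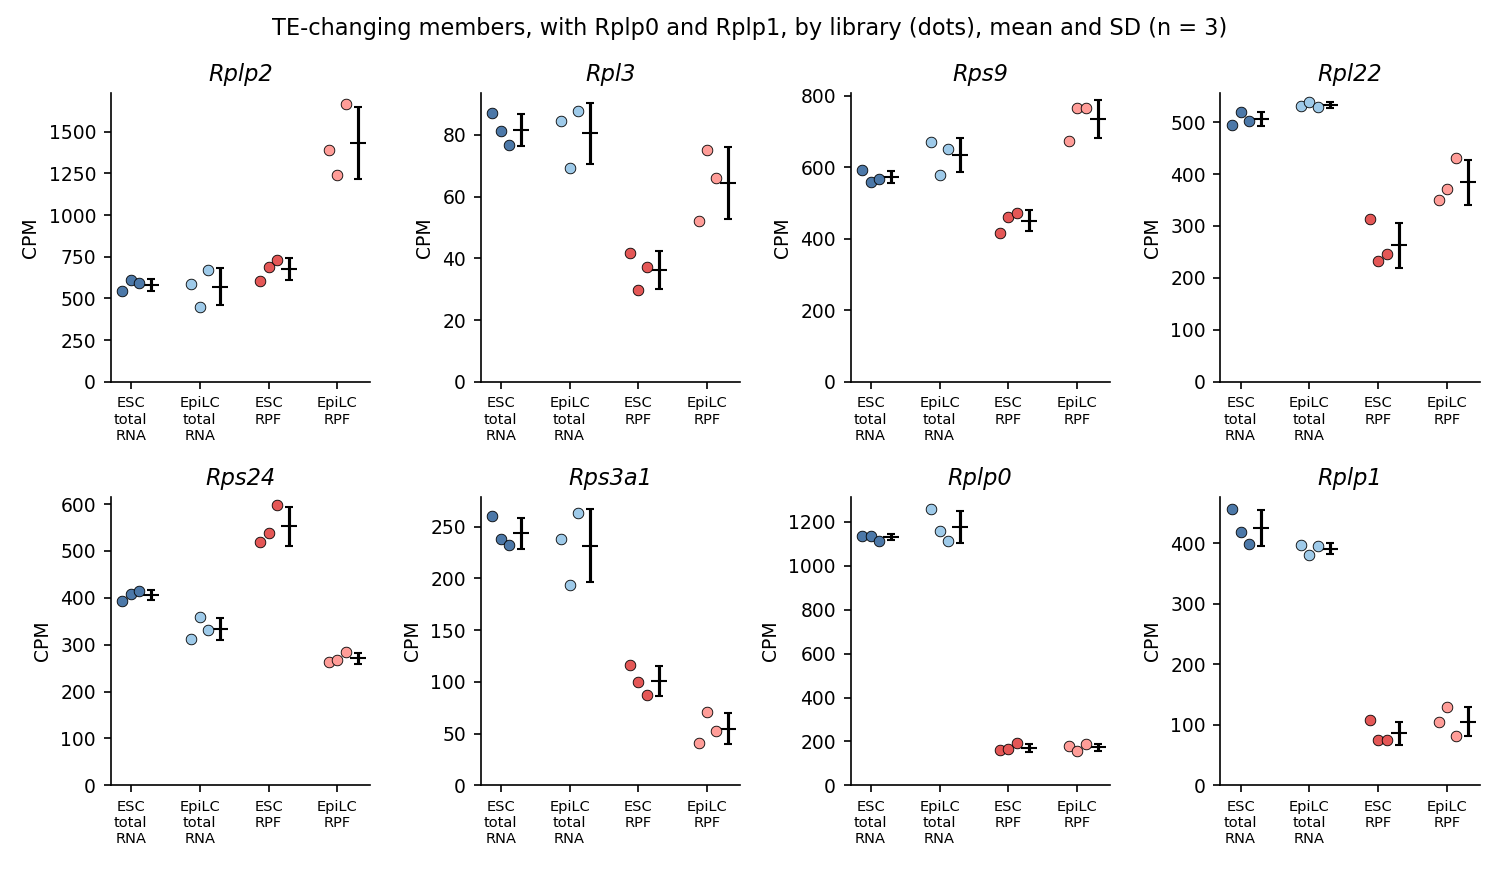
CPM (y axis, linear from 0) of Rplp2, Rpl3, Rps9, Rpl22, Rps24, Rps3a1, Rplp0 and Rplp1 in each of the 12 libraries by group (x axis), with 1 dot per library and the mean and SD of 3 beside them. RPFs of the first 4 genes are higher in EpiLCs, those of Rps24 and Rps3a1 are lower, and those of Rplp0 and Rplp1 overlap.

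Because translation of ribosomal protein mRNAs is known to act through the pyrimidines at their first bases, RefSeq start sites (GRCm38.p6) were read for such a run. A run was taken as a C followed by at least 5 more C or T that begins within 5 bases of the annotated start. It was found in 27 of 66 members with a start (40.9%) and in 1210 of 9284 tested genes with a start (13%). These 66 include members that the filter removed, such as Rpl13a and Rpl15, and are not the 66 tested members. The longest such runs of the genes with a called TE change were those of Rplp2 (9 bases), Rps9 and Rps24 (8 bases each). Beginning within the same 5 bases, Rpl22 and Rps3a1 had runs of only 2 bases and 1 base. No start was matched for Rpl3. Only annotated starts were read, so a gene without a run here may carry one at another start. Runs of the kind counted stood in Rplp2 and Rps9, whose TE rose, and in Rps24, whose TE fell. Whether these runs bear on the TE changes was not tested. The stretch from 5 bases before to 15 after the start is shown for these 5 genes with a start. Capitals mark the longest run that begins within 5 bases of the start.
Rplp2, chr7:141447646-141447665, + strand: tCTTCCTTTCgccgccggac
Rps9, chr7:3704036-3704055, + strand: CTCTCTTTgtctcgggcctg
Rps24, chr14:24490673-24490692, + strand: ggtCCTTCCTTgcgcgttga
Rpl22, chr4:152324431-152324450, + strand: ggaatgttCCagctcccact
Rps3a1, chr3:86142654-86142673, - strand: aagggCgaaagagcaagggt

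Paralogues carried the largest changes in total RNA. Both genes of 8 pairs were in the table. Rpl39l, Rpl10l and Rpl36al are autosomal copies of the X-linked genes Rpl39, Rpl10 and Rpl36a, and Rpl39l and Rpl10l are best known from the testis. Rps27rt is a copy of Rps27. For these pairs of equal length, 29 nt of the counted coding sequence are shown with the differing bases in capitals. The stretches of Rpl39l, Rpl10l and Rpl36al differ from those of their partners at 9, 8 and 7 of 29 bases. These are larger shares than over the whole coding sequence, which is given below. Whether a window was unique depended on every other locus, not only on the partner. The coordinates (mm10) span the counted sequence of the gene.
Rpl39l, chr16:10174355-10174465, + strand, coding bases 117 to 145: CaagCgGagacaTtggagACgaacCaaAT
Rpl39, chrX:37082701-37084046, - strand, coding bases 117 to 145: TaagAgAagacaCtggagGAgaacGaaGC
Rpl10l, chr12:66283713-66284312, - strand, coding bases 119 to 147: aGgcGaaGgtGgatgaGttTccactCtgC
Rpl10, chrX:74271682-74273067, + strand, coding bases 119 to 147: aAgcAaaAgtTgatgaAttCccactTtgT
Rpl36al, chr12:69182816-69183091, - strand, coding bases 152 to 180: agacAaagccAatCttTcgAaaGaaggcC
Rpl36a, chrX:134586120-134587957, + strand, coding bases 152 to 180: agacTaagccTatTttCcgCaaAaaggcT
Rps27rt, chr9:114982453-114982662, - strand, coding bases 46 to 74: aagaggaaacacaagaaaaagcgcctggt
Rps27, chr3:90212715-90213262, - strand, coding bases 46 to 74: aagaggaaacacaagaaaaagcgcctggt

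Over the whole coding sequence Rpl39l and Rpl39 were identical at 85.3% of 156 bases, Rpl10l and Rpl10 at 84.8% of 645 and Rpl36al and Rpl36a at 87.9% of 321. Rps27rt and Rps27 were identical at all 255 bases. At 29 nt all windows of Rpl39l were unique, as were 62.0% of those of Rpl10l and 20.7% of those of Rpl36al. Of the partners, Rpl39 had 15.3%, and Rpl10, Rpl36a, Rps27 and Rps27rt had none. A ratio between such genes is a ratio of the reads that could be counted.

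Rpl39l fell in both assays. Its total RNA was 21.7, 20.7 and 25.8 CPM in ESCs and 3.26, 2.88 and 4.23 CPM in EpiLCs. Its RPFs were 56.5, 63.2 and 60.9 CPM in ESCs and 4.97, 4.93 and 4.68 CPM in EpiLCs. Neither assay overlapped. The log2 changes were -2.70 ± 0.21 for total RNA (limma adjusted p = 4.3e-11) and -3.60 ± 0.26 for RPFs (adjusted p = 1.25e-11), or 6.50-fold and 12.1-fold lower, and TE did not pass the test (-0.90 ± 0.34, adjusted p = 0.208). Rpl39, its partner, had 5.6, 6.22 and 5.22 CPM in ESC and 6.93, 2.72 and 4.23 CPM in EpiLC total RNA, a change of -0.19 ± 0.28 that did not pass.

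Rpl10l fell likewise. Its total RNA went from 28.1, 25.7 and 22.0 CPM to 4.4, 4.96 and 5.37 CPM, a change of -2.39 ± 0.19 (limma adjusted p = 6.28e-11). Its RPFs went from 43.7, 37.4 and 42.0 CPM to 6.21, 4.55 and 8.24 CPM, a change of -2.64 ± 0.25 (adjusted p = 1.81e-09). Rpl10 RPFs rose at the same time, as given above. The log2 ratio of Rpl10l to Rpl10 per kb was 2.75 ± 0.59 in ESC and -0.86 ± 0.55 in EpiLC RPFs (SD, n = 3). The row of Rpl10l thus held more counted footprints per kb in ESCs and the row of Rpl10 more in EpiLCs, although with no unique window at 29 nt the reads in the row of Rpl10 cannot be assigned to that gene with certainty. The 2-sided exact permutation test of this ratio gave the smallest possible p = 0.1 (adjusted p = 0.145 over 16 tests of 8 pairs).

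Rpl3l, the form of Rpl3 that striated muscle uses, was low throughout and all of its windows were unique. Its total RNA was 4.29, 3.03 and 4.28 CPM in ESCs and fell by 2.78 on the log2 scale to 0.333, 0.480 and 1.03 CPM in EpiLCs (limma adjusted p = 1.84e-05). Its RPFs had 28, 23 and 72 counts in ESCs and 3, 2 and 4 in EpiLCs, a fitted change of -2.63 ± 0.56 (adjusted p = 0.000271). Per kb, Rpl3l stood 4.26 ± 0.26 below Rpl3 in ESC total RNA and 6.24 ± 0.42 below in EpiLC total RNA on the log2 scale (SD, n = 3).

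The remaining paralogues changed less. Rpl22l1 had 48.6, 41.4 and 37.8 CPM in ESC and 45.2, 54.5 and 42.6 CPM in EpiLC total RNA, a change of 0.13 ± 0.11 that did not pass. Its RPFs, at 18, 12.7 and 13.3 CPM in ESCs and 20.3, 16.7 and 24.3 CPM in EpiLCs, rose by 0.53 ± 0.21 (limma adjusted p = 0.0311) with overlap. That call was lost without ESC RPF replicate 2 or 3 or EpiLC RPF replicate 1 or 3 (adjusted p of 0.0668 to 0.229). Rpl22 RPFs rose as well, and the log2 ratio of the pair moved by -0.09 in RPFs (exact permutation p = 0.9).

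Rps27l, which p53 induces, had RPFs of 28.3, 21.2 and 27.5 CPM in ESCs and 29.4, 32.6 and 39.5 CPM in EpiLCs, a rise of 0.37 ± 0.15 (limma adjusted p = 0.0408). This call was lost in 5 of the 12 fits with a library removed (adjusted p of 0.0577 to 0.367), namely those without an ESC RPF library or without EpiLC RPF replicate 2 or 3. Rps27 itself had 1, 0 and 1 counts in ESC RPFs and 16, 2 and 10 in EpiLC RPFs, while its total RNA counts were 5, 0 and 3 and 2, 2 and 1. It did not pass the filter on low counts. Rps27rt had at most 1 count in a total RNA library and 0 in every RPF library.

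Rpl36al had total RNA of 76.4, 75.1 and 104 CPM in ESCs and 80.6, 59.6 and 65.7 CPM in EpiLCs, which overlapped (-0.26 ± 0.11, limma adjusted p = 0.043). That call was lost without ESC total RNA replicate 3 (-0.12, adjusted p = 0.350) and without EpiLC total RNA replicate 2 (-0.17, 0.199) or 3 (-0.21, 0.155). Its RPFs were 64.7, 73.9 and 74.2 CPM in ESCs and 44.9, 53.5 and 43.6 CPM in EpiLCs, without overlap, and fell by 0.61 on the log2 scale (adjusted p = 0.00154). Rpl36a had 0 to 4 counts in total RNA and 4 to 18 in RPFs and was not tested.

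Rpl7l1, the assembly factor, fell in both assays without overlap. It had 156, 149 and 149 CPM in ESC and 104, 108 and 99.5 CPM in EpiLC total RNA (-0.55 ± 0.08, limma adjusted p = 1.01e-06). Its RPFs were 183, 202 and 161 CPM in ESCs and 105, 92.6 and 115 CPM in EpiLCs (-0.76 ± 0.09, adjusted p = 1.38e-07). Its ribosomal namesake Rpl7 did not pass in total RNA (0.09 ± 0.08) and changed by -0.40 ± 0.12 in RPFs (adjusted p = 0.00524). Rps19bp1, all of whose windows were unique, had 28.7, 24.0 and 30.5 CPM in ESC and 22.4, 18.9 and 17.7 CPM in EpiLC total RNA, a change of -0.46 ± 0.13 (adjusted p = 0.00369).

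**Figure D5:**
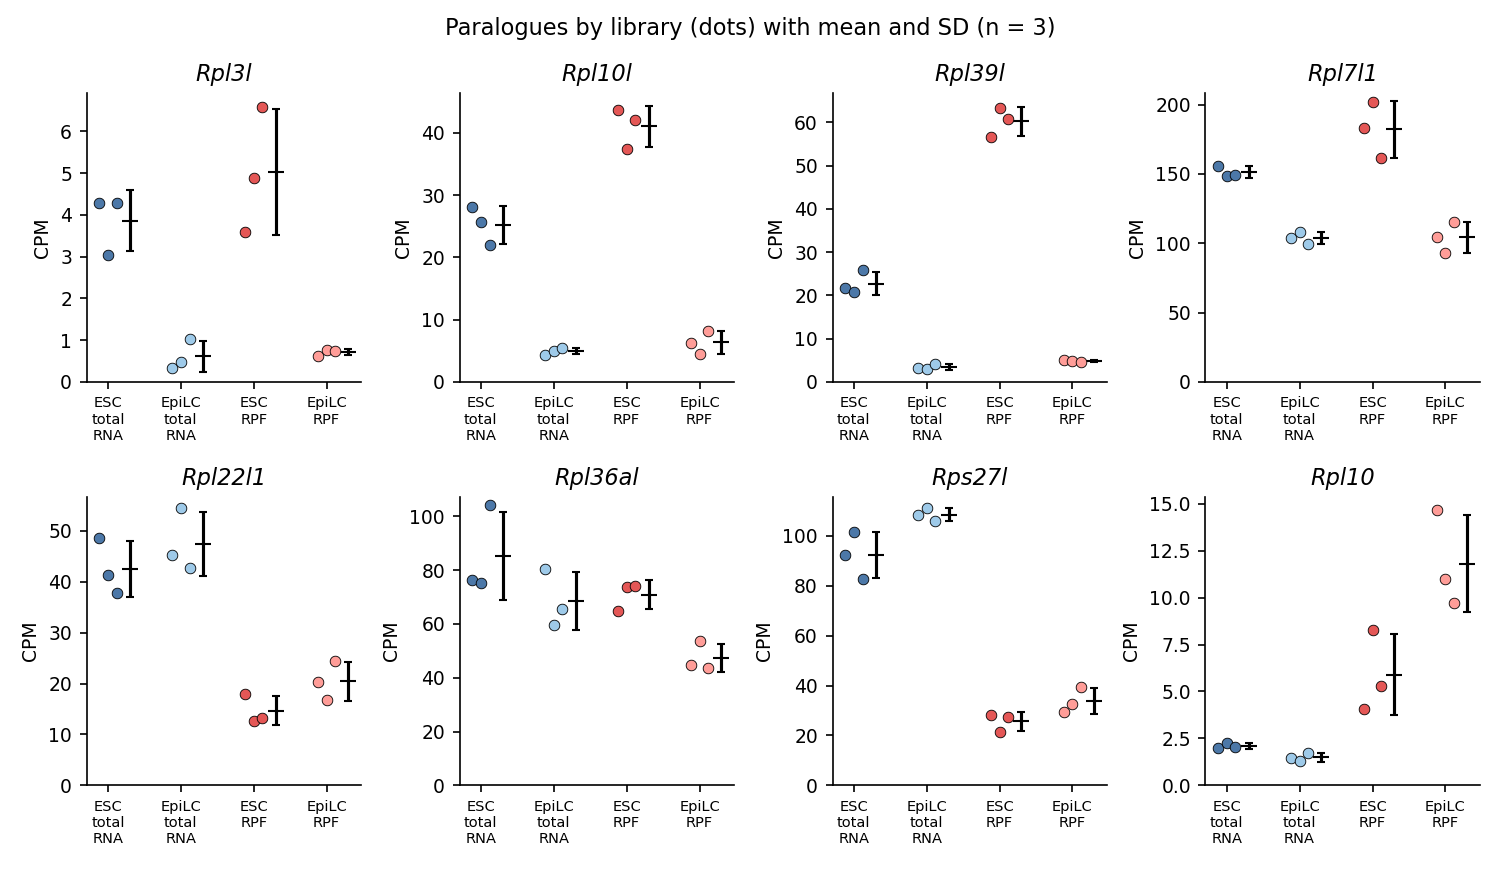
CPM (y axis, linear from 0) of Rpl3l, Rpl10l, Rpl39l, Rpl7l1, Rpl22l1, Rpl36al, Rps27l and, for reference, Rpl10 in each of the 12 libraries by group (x axis), with 1 dot per library and the mean and SD of 3 beside them. Rpl3l, Rpl10l, Rpl39l and Rpl7l1 are lower in EpiLCs in both assays, and Rpl10 is higher in EpiLC RPFs.

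Other genes whose mRNAs carry or are held to carry the TOP motif were read beside the members. Of 19 listed, such as Eef2, Pabpc1 and Rack1, 16 were tested, and their median unique share at 29 nt was 50.6%. In ESCs 12 of them had lower RPFs than total RNA and 3 higher (34.5% and 33% of all genes), and in EpiLCs 10 were lower and 3 higher (33% and 31.3%). RPFs of 10 rose and of 4 fell in EpiLCs (31.1% and 28.7% of all genes), and total RNA of 3 rose and of 3 fell (34.6% and 30.7%). TE rose for Pabpc1 (0.64 ± 0.10, limma adjusted p = 0.000662), which encodes the cytosolic poly(A)-binding protein. It rose also for Eef2 (0.50 ± 0.07, adjusted p = 0.00014), the translocation factor, and Rack1 (0.37 ± 0.09, adjusted p = 0.0441), a scaffold on the small subunit, and fell for none (0.57% and 0.63% of all genes).

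Of 27 ribosome assembly genes, all tested and with a median unique share of 98.9%, 15 had higher RPFs than total RNA in ESCs and 3 lower (33% and 34.5% of all genes). In EpiLCs 14 were higher and 4 lower (31.3% and 33%). The list includes Rps19bp1, which is also 1 of the 86 members. The median TE of the list was 0.25 in ESCs and 0.30 in EpiLCs. Total RNA of 4 rose and of 8 fell (34.6% and 30.7% of all genes), RPFs of 3 rose and of 10 fell (31.1% and 28.7%), and TE fell for 1 (0.63%). Nolc1, a nucleolar assembly factor, had a TE of 1.26 ± 0.06 in ESCs and 1.21 ± 0.06 in EpiLCs. The difference between this list and the members was not tested.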

How the data were processed

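The authors deposited raw counts per gene for the 12 libraries in a single table, with the coordinates (mm10) and counted length of each gene. Per the study's methods and processing notes, libraries were made with a ribosome profiling kit and sequenced from a single end, adapters were trimmed with cutadapt 1.14, and reads were aligned to mm10 with STAR 2.5.3a. Only reads with 1 mapping position were kept, and featureCounts 1.5.3 counted them on Gencode M14 coding sequence without the first 45 nt. Treatment of PCR duplicates is not given in the sources used here, so the limits from a count of 0 cover counting error only. Every column of values belonged to a sample.

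From these counts, genes with at least 3 CPM in at least 3 libraries were kept (11750 genes, 66 of 86 members). Counts were scaled by TMM (edgeR 4.0.16) and fitted with voom and limma 3.58.1 in R 4.3.3, with the 4 groups as levels and all 12 libraries in 1 model. Contrasts gave the change of total RNA, of RPF and of TE (the interaction), and TE in each cell type. The Benjamini-Hochberg adjustment ran over all kept genes, and a gene passed at an adjusted p below 0.05. An absolute log2 change above 1, the limit of the study, is given as a second rule. CPM are TMM-scaled, and log2 changes and SE are those of the fit with 0.5 added to counts. Shares and paralogue ratios (0.5 CPM added) were tested by a 2-sided exact permutation test. Unique windows were found among Gencode M21 transcripts, a later release than that of the counts. RefSeq starts are those of GRCm38.p6.

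Genes named were the members of paralogue pairs, the P-stalk genes, the 5 highest and 5 lowest TEs, the 5 largest rises and falls that passed, all calls past the fold limit, all TE calls and the 3 extremes of level. A few members the rule would name are not reported here. The members, lists and this rule were chosen with earlier results of these data known. The fit was tested on simulated counts. Alternatives were other scalings, filters, tests (edgeR's quasi-likelihood test, DESeq2 1.42.0, limma-trend), a replicate block, and each library left out.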

Additional observations from a re-analysis of the deposited data

Results flagged for a closer look

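The TE of 6 members differed between the cell types by the interaction test, with log2 changes from ESCs to EpiLCs of 1.12 for Rplp2, 0.77 for Rpl3, 0.55 for Rps9, 0.47 for Rpl22, -0.73 for Rps24 and -0.89 for Rps3a1. In 22 alternative fits Rplp2, Rps24 and Rps9 passed every time, whereas Rps3a1 did not pass in 3, Rpl3 in 5 and Rpl22 in 12. All 6 genes have less than 50% unique windows at 29 nt, and what the reads that were not counted would add was not tested.

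Counts were also found in genes that the naming rule left out as pseudogenes, above the 3 counts that a 0 allows. The highest count in a library was 407 for Rpl13a-ps1, 8 for Rpl27-ps3, 6 for Rpl13-ps3, 6 for Rpl9-ps1, 4 for Rpl7a-ps5 and 4 for Rpl9-ps6. Rpl13a-ps1 reached 407 in ESC total RNA replicate 1, where Rpl13a itself had 0.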

How the results depend on the processing

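Of the 66 tested members, 57 have less than 50% unique windows at 29 nt, and depth limits members with few counts, such as Rpl39, Rpl28, Rps28 and Rpl35. No named change that passed the test changed sign under the alternatives run. The median changes of total RNA and of RPFs and the change of the total RNA ratio of Rpl36al to Rpl36a did, as given below. With 1 library left out, the change of the log2 ratio of Rpl22l1 to Rpl22 ran from -0.02 to 0.19 in total RNA and from -0.15 to 0.03 in RPFs. That of Rps27rt to Rps27 ran from -0.11 to 0.20 in total RNA. The members with at least 50% unique windows and the levels per unique window were alternatives added after seeing the data. The cause of the differences below was not tested.

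Total RNA rose for 5 members, and for 3 with DESeq2 size factors, 2 with every gene that has a count, 3 with at least 10 counts in every library, 2 with edgeR, 1 with DESeq2, 1 with limma-trend and 0 past the fold limit. It fell for 13, for 7 with limma-trend and for 3 past the fold limit, and the median was -0.051 with DESeq2. RPFs rose for 18 and fell for 14, and for 4 and 4 past the fold limit. Their median of 0.19 was 0.029 with at least 10 counts, 0.13 with limma-trend and -0.10 in the members with at least 50% unique windows. TE rose for 4 members, for 2 with every gene that has a count or with limma-trend and for 1 past the fold limit. It fell for 2, for 1 with limma-trend and for 0 past the fold limit.

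TE in ESCs was higher for 11 members, and for 6 with at least 10 counts or past the fold limit. Its median of -1.22 was -1.29 with library totals, -0.89 with every gene, -1.30 with at least 10 counts, -1.29 without Rps19bp1 and Rpl7l1, and -0.50 in the members with at least 50% unique windows. TE in EpiLCs was higher for 10 members, for 5 with at least 10 counts and for 6 past the fold limit, and lower for 46, or 30 past the fold limit. Its median of -0.96 was -0.72 with every gene and -0.29 in the members with at least 50% unique windows.

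The quartile ratio of the levels was 19.8 in EpiLC total RNA and 12.2 in ESC RPFs for members of at least 200 nt. With at least 20 unique windows it was 5.86 in ESC total RNA, 6.84 in EpiLC total RNA, 6.40 in ESC RPFs and 6.10 in EpiLC RPFs, and per unique window 5.14, 4.94, 4.64 and 4.86. With 2 CPM added, the log2 ratio of Rpl3l to Rpl3 moved by -1.14 in total RNA and -2.14 in RPFs, that of Rpl36al to Rpl36a by -0.16 in total RNA (0.15 with 0.5 added), that of Rps27l to Rps27 by -0.52 and that of Rps27rt to Rps27 by -0.89 in RPFs.

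With 1 library left out, total RNA rose for 2 (without ESC total RNA replicate 3) to 8 members (without EpiLC total RNA replicate 2) and fell for 10 to 14. RPFs rose for 12 to 18 and fell for 10 to 15, with a median of 0.048 to 0.194. TE rose for 2 (without ESC RPF replicate 2 or EpiLC RPF replicate 2 or 3) to 5 and fell for 2 to 5 (5 without ESC RPF replicate 3). Total RNA rose for 3 without any one of the ESC RPF libraries or EpiLC RPF replicate 1 or 2. The median TE was -1.26 to -1.14 in ESCs and -1.03 to -0.93 in EpiLCs.

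The study describes the total RNA as matched to the RPFs, and the labels give both the same numbers without saying what a number marks. Deviations of same-numbered libraries from their group means correlated by a mean of -0.04 to 0.07, so the data did not show a pairing. With the replicate block TE rose for 5 and fell for 3 members, and with same-numbered RPF and total RNA libraries of a cell type as the block for 5 and 4. The block gave 22 rises and 15 falls of RPFs.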
